A study of Mus musculus with 30 samples.

Results

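The comparison was between LPS-stimulated macrophages that had been pretreated with the plant saponin OSW-1 and LPS-stimulated macrophages that had received no compound. It held 3 libraries against 3, which is 6 of the 30 libraries of the series, and they were chosen by their treatment labels. OSW-1 + LPS macrophages were C57BL/6 bone marrow derived macrophages (BMDM) given 0.3 µM OSW-1 for 18 h and then LPS at 10 ng/mL for 18 h. Untreated + LPS macrophages had the same genotype and LPS exposure without a compound. The labels name no vehicle for the untreated cells, and they do not say whether OSW-1 stayed in the medium during LPS. Each group held 1 library from each of 3 mice, so the spread between libraries is a spread between animals. Libraries set beside these 6 came from C57BL/6 macrophages pretreated with 5 µM 25-hydroxycholesterol (25HC) or 1 µM itraconazole before LPS, from OSW-1 and untreated macrophages collected without LPS at time 0, and from Ch25h-/- macrophages, which lack the enzyme that makes 25HC. The Ch25h-/- macrophages received no compound and were collected with and without LPS.

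OSW-1 is a steroidal saponin that binds the oxysterol-binding protein OSBP. OSBP works at contacts between the endoplasmic reticulum and the Golgi, where it moves cholesterol towards the Golgi in exchange for the phosphoinositide PI4P, which is then broken down in the endoplasmic reticulum. LPS, a component of the outer membrane of Gram-negative bacteria, is sensed by TLR4 with its co-receptors CD14 and MD-2, and the receptor signals through NF-kB to cytokine genes and through IRF3 to type I interferon and then to interferon-stimulated genes. Sterol supply is read by SREBP2, which switches on cholesterol synthesis when sterols are low, and by the LXR receptors, which switch on cholesterol export when oxysterols are high.

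Promoters were searched for 5 short motifs on both strands in RefSeq sequence of GRCm38.p6, over 250 bases before to 50 bases after each gene's start, in 27025 genes. The motifs were GGANTTTCC (the kB element bound by NF-kB), TGACGTGG (a core of elements bound by the stress factors XBP1, ATF6 and CREB3), TGATGNAA (the element bound by ATF4 with C/EBP partners), GAAANNGAA (the interferon-stimulated response element) and TCACNCCAC (the sterol element bound by SREBP). A match means that these letters are present, not that a factor was bound. The sequences are shown as examples from the gene lists described below whose promoters hold a motif, and each is read along its gene with the matched letters in capitals.
Promoters of cytokine genes with the kB element, which had higher RNA with OSW-1, were as follows.
Il6 (chr5:30013057-30013093, + strand): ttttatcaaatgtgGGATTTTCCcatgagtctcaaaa
Cxcl1 (chr5:90891161-90891197, + strand): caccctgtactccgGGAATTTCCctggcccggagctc
Cxcl2 (chr5:90903789-90903825, + strand): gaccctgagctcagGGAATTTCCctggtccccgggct
Cxcl3 (chr5:90786015-90786051, + strand): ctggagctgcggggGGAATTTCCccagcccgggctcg
Csf1 (chr3:107760601-107760637, - strand): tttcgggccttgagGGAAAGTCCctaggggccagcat
The element was in 6 of 19 (31.6%) promoters of the inflammatory cytokine and chemokine list, against 392 of 27025 (1.45%) promoters of all genes.

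Promoters of genes for Golgi transport held TGACGTGG, read on one strand or the other, within 30 bases before the start.
Kdelr3 (chr15:79516364-79516399, + strand): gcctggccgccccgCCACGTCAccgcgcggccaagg
Sec24d (chr3:123267456-123267491, + strand): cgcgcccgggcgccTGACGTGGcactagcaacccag
Copb2 (chr9:98563710-98563745, + strand): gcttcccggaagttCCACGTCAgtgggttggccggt
That motif was in 5 of 20 (25%) promoters of the Golgi list and in 193 of 27025 (0.714%) promoters of all genes. It was in 0 of 18 promoters of the unfolded protein response list. Promoters of ATF4 target genes are shown next.
Slc7a11 (chr3:50443658-50443693, - strand): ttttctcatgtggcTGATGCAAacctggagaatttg
Chac1 (chr2:119351035-119351070, + strand): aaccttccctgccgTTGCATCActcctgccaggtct
Asns (chr6:7693211-7693246, - strand): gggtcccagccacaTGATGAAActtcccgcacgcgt
TGATGNAA was in 8 of 23 (34.8%) promoters of the ATF4 list and in 1219 of 27025 (4.51%) of all genes.

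Interferon-stimulated genes and a gene of cholesterol synthesis had lower RNA with OSW-1, and their elements were these.
Ifit3 (chr19:34583413-34583449, + strand): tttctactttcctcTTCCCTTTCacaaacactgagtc
Cxcl9 (chr5:92328232-92328268, - strand): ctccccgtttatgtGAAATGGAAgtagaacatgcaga
Hmgcs1 (chr13:119690200-119690236, + strand): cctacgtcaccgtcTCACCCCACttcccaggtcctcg
The interferon element was in 19 of 27 (70.4%) promoters of the interferon list and in 2638 of 27025 (9.76%) of all genes. The sterol element was in 1 of 17 (5.88%) promoters of the cholesterol synthesis and uptake list and in 388 of 27025 (1.44%) of all genes. Among all genes called higher and all called lower with OSW-1, GGANTTTCC was in 2.13% and 1.57% of promoters and TGACGTGG in 1.49% and 0.662%. In the same order, TGATGNAA was in 2.89% and 2.95%, GAAANNGAA in 7.44% and 10.2%, and TCACNCCAC in 1.11% and 1.77%. Among all tested genes, called or not, GGANTTTCC was in 1.74% of promoters, TGACGTGG in 1.02% and TGATGNAA in 2.83%. GAAANNGAA was in 8.98% and TCACNCCAC in 1.46% of them.

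Total counts per library were 23946536 to 29630084 in OSW-1 + LPS macrophages and 36343366 to 40904822 in untreated + LPS macrophages. The deposited counts differed in form: every count was even in the untreated + LPS libraries, while 49.8 to 50.3% of the nonzero counts were odd in the OSW-1 + LPS libraries and 49.7 to 51.4% in the Ch25h-/- libraries. Among the wild-type libraries with LPS this form goes with OSW-1, and the 2 cannot be told apart there. Without LPS the OSW-1 and untreated libraries were all even, and 1 library of another group, that of the third 25HC mouse, held odd counts (46.1%). The Ch25h-/- libraries have the odd and even form too, but they also differ from the wild-type ones in genotype and animals. The part of the form in the results was not tested. Ch25h-/- against wild-type macrophages crosses the same difference in form without OSW-1 and gave 30 called genes of 13173 with LPS (0.228%) and 1 without LPS (0.00759%). Those counts rose to 2396 with LPS when untreated mouse 3 was left out and to 361 without LPS when untreated mouse 3 was left out there. With the Ch25h-/- + LPS libraries as the untreated group, whose counts have the form of the OSW-1 libraries, 8507 of the 9403 calls reported below (90.5%) passed in the same direction and 9342 had the same sign. Both comparisons share the OSW-1 libraries. Mitochondrial genes took 1.04 ± 0.0894% of the counts with OSW-1 and 1.06 ± 0.145% without it (SD, n = 3 each). The third untreated mouse stood apart from the other 2, with 301 of 10067 well expressed genes more than 2-fold from their mean, against 98 and 20 genes for the other untreated mice and 9 to 80 genes for the OSW-1 mice.

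The labelled cell type was checked against its markers. All 7 macrophage markers present in the table had reads in every library, and their summed level was 8222 to 9910 CPM (counts scaled to library size, and in the gene values below also to library composition) in OSW-1 + LPS macrophages and 16300 to 26767 CPM in untreated + LPS macrophages. Csf1r, Cd68, Mertk, Fcgr1, Lyz2 and Itgam were lower and Cd14 higher with OSW-1. Markers of other cell types were low: summed B cell markers reached 0.709 CPM with OSW-1 and 8.53 CPM without it, neutrophil markers 3.81 and 11.6 CPM, dendritic cell markers 1.96 and 0.825 CPM, stromal markers 21.3 and 10.9 CPM, endothelial markers 14.5 and 24.1 CPM, and osteoclast markers 41.1 and 64.2 CPM. The stromal sum with OSW-1 was mostly Pdgfrb, a growth factor receptor with 14.7, 13.6 and 19.4 CPM with OSW-1 and 0.538, 1.18 and 0.825 CPM without it, whereas Col1a1, Col1a2, Col3a1 and Dcn were lower with OSW-1. T and NK cell markers stayed at or under 0.0675 CPM and erythroid markers at or under 0.0384 CPM in both groups, and the 4 mast cell markers had no read. The part of these markers in the results was not tested. In bulk RNA, fewer cells of a type and less RNA per cell cannot be told apart.

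Most tested genes differed between OSW-1 + LPS and untreated + LPS macrophages, a comparison in which the form of the counts goes with OSW-1. Of 13173 genes tested with edgeR's quasi-likelihood test, 4516 were higher (34.3%) and 4887 lower (37.1%) at an adjusted p under 0.05, and 1810 were at least 2-fold higher and 2829 at least 2-fold lower among them. The median log2 fold change was -0.0578 over all genes. Most tested members of the lists for inflammatory cytokines and chemokines, Golgi transport and ATF4 targets were higher. Most members of the lists for interferon-stimulated genes, cholesterol synthesis, glycolysis, lysosomal genes and macrophage receptors were lower.

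Genes for secreted signals were among those with the largest increases. The genes with the largest increases and decreases were picked among genes whose groups did not overlap, so non-overlap was a condition of the choice. Many list members named further below were picked for the smallest p in their list. For those, the words "without overlap" describe the values, follow largely from that choice and add no separate support. The share of all tested genes whose groups did not overlap is not given here. Csf2, which encodes the growth factor GM-CSF, had 406, 459 and 787 CPM in OSW-1 + LPS macrophages, against 0.369, 0.120 and 0 CPM in untreated + LPS macrophages. Csf2 had a log2 fold change of 11.70 ± 0.62 (adjusted p = 1.67e-11, where ± after a log2 fold change is its standard error, approximate near 0 counts). Il6, which encodes the cytokine interleukin-6, had 1819, 1891 and 2995 CPM in OSW-1 + LPS macrophages, against 5.04, 5.70 and 0.973 CPM in untreated + LPS macrophages. All OSW-1 libraries were high, and the third untreated mouse was lowest (log2 fold change 9.16 ± 0.55, adjusted p = 2.52e-13). Cx3cl1, the membrane-bound chemokine fractalkine, had 69.5, 62.2 and 56.4 CPM in OSW-1 + LPS macrophages, against 0.0615, 0.180 and 0.0608 CPM in untreated + LPS macrophages. Its 3 untreated libraries were near the limit of detection (9.22 ± 0.51 on the log2 scale, adjusted p = 7.09e-14). Cxcl1, a chemokine for neutrophils, had 591, 658 and 710.0 CPM in OSW-1 + LPS macrophages, against 1.60, 1.80 and 0.790 CPM in untreated + LPS macrophages (8.87 ± 0.36, adjusted p = 6.01e-16). Ccl22, a chemokine for CCR4-bearing T cells, had 973, 1273 and 2041 CPM in OSW-1 + LPS macrophages, against 6.58, 7.74 and 2.74 CPM in untreated + LPS macrophages, and the third mouse was the highest of the OSW-1 libraries and the lowest of the untreated ones (7.97 ± 0.49, adjusted p = 3.69e-13).

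Other leading genes lay outside the cytokines. Scube3, a secreted and membrane-attached glycoprotein, had 39.9, 53 and 44.9 CPM in OSW-1 + LPS macrophages, against 0.0615, 0 and 0 CPM in untreated + LPS macrophages. Only 1 Scube3 read was seen over the 3 untreated libraries, with the even counts halved, so the ratio of 2711 has a 95% counting interval of 486 to 107089, which covers counting error only. Gm13889, a gene without an assigned function in the files, had 225, 231 and 172 CPM in OSW-1 + LPS macrophages, against 0.369, 0.0600 and 0.122 CPM in untreated + LPS macrophages (10.14 ± 0.61, adjusted p = 3.34e-13). The basement membrane protein Lad1 had 315, 336 and 338 CPM with OSW-1 and 1.04, 1.5 and 0.122 CPM without it, and Shisa3, a membrane adaptor that dampens Wnt and FGF receptors, had 468, 496 and 406 CPM with OSW-1 and 1.72, 2.64 and 0.243 CPM without it. The log2 fold change was 8.53 ± 0.43 for Lad1 (adjusted p = 2.59e-13) and 8.21 ± 0.43 for Shisa3 (adjusted p = 2.96e-14). Serpinb2, an inhibitor of plasminogen activators, averaged 371 ± 188 CPM with OSW-1 and 2.33 ± 1.15 CPM without it (7.31 ± 0.52, adjusted p = 4.93e-12), and the hyaluronan synthase Has1 averaged 38.8 ± 12.3 CPM with OSW-1 and 0.224 ± 0.154 CPM without it (7.42 ± 0.43, adjusted p = 6.4e-11; ± after CPM is the SD, n = 3 each).

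The genes that fell furthest included surface receptors, a chemokine and genes of matrix and lipid metabolism. Tgfbi, a secreted matrix protein, had 1.81, 1.98 and 13.1 CPM in OSW-1 + LPS macrophages, against 1906, 1637 and 1462 CPM in untreated + LPS macrophages. The third OSW-1 mouse was higher than the other 2, and all 3 stayed far under the untreated range (-8.19 ± 0.55, adjusted p = 2.04e-12). Ly6a, the surface antigen Sca-1, had 0.361, 0.187 and 0.550 CPM in OSW-1 + LPS macrophages, against 224, 138 and 90.0 CPM in untreated + LPS macrophages (-8.65 ± 0.56, adjusted p = 9.31e-13). Fads2, a desaturase of polyunsaturated fatty acids, had 0.281, 0.337 and 0.206 CPM in OSW-1 + LPS macrophages, against 80.2, 82.6 and 74.3 CPM in untreated + LPS macrophages, with all untreated libraries close together (-8.16 ± 0.59, adjusted p = 7.12e-12). Nxpe5, a gene of the neurexophilin and PC-esterase domain family, had 0.0401, 0.0748 and 0.0344 CPM in OSW-1 + LPS macrophages, against 81.1, 83.1 and 204 CPM in untreated + LPS macrophages (-11.17 ± 1.14, adjusted p = 3.16e-09). Ccl8, a monocyte chemokine, averaged 0.164 ± 0.194 CPM with OSW-1 and 42.8 ± 8.73 CPM without it (-7.92 ± 0.43, adjusted p = 4.63e-14), and Cbr2, a carbonyl reductase, 0.164 ± 0.194 CPM with OSW-1 and 41.4 ± 7.45 CPM without it (-7.87 ± 0.40, adjusted p = 1.84e-14).

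For the remaining leaders the OSW-1 libraries held 0 to 3 reads in all, so ratios of depth-scaled reads are given, untreated + LPS over OSW-1 + LPS. Prss46, a serine protease, had 1 read in OSW-1 + LPS macrophages, against 688 in untreated + LPS macrophages, a ratio of 943 with a counting interval of 169 to 37308. F13a1, the coagulation factor XIII A chain of tissue macrophages, had 3 reads with OSW-1 and 1058 without it, a ratio of 483 (165 to 2348). The purinergic receptor P2ry12 had a ratio of 212 (58.3 to 1762). Zfyve28 and Rapsn, which clusters acetylcholine receptors at muscle synapses, had no read with OSW-1 and 292 and 81 reads without it. They were at least 133-fold and at least 37.0-fold lower with OSW-1, against a floor of 3 reads over the 3 libraries.

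**Figure D1:**
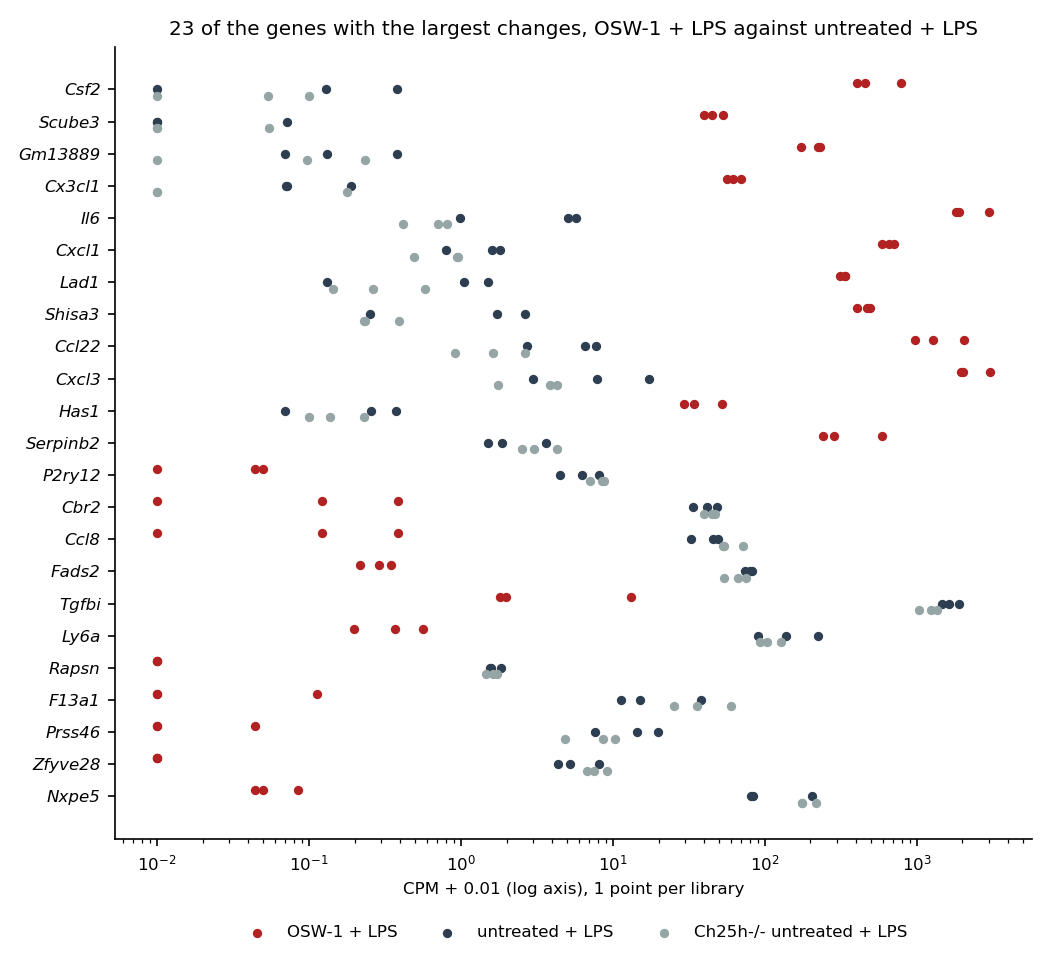
CPM + 0.01 on a log axis in each library for the 12 genes with the largest and 11 of the 12 with the smallest log2 fold change, with 3 OSW-1 + LPS libraries, 3 untreated + LPS libraries and 3 Ch25h-/- + LPS libraries as points. The genes were picked among those whose OSW-1 and wild-type untreated libraries did not overlap, so that separation is a condition of the choice. Csf2 stands at 406 to 787 CPM in OSW-1 libraries and at most 0.369 CPM in wild-type untreated ones.

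Of 30 inflammatory cytokine and chemokine genes tested, 22 were higher and 4 lower with OSW-1, with a median log2 fold change of 5.16. Among the alarm cytokines, Tnf had 676, 706 and 1065 CPM in OSW-1 + LPS macrophages, against 72.8, 75.9 and 19.2 CPM in untreated + LPS macrophages. No OSW-1 library reached down to the untreated range, although the third untreated mouse was low (3.87 ± 0.47, adjusted p = 6.02e-08). Il1b, made as a precursor that caspase-1 cleaves, had 9040.5, 10230.1 and 14538 CPM in OSW-1 + LPS macrophages, against 1586, 1095 and 2029 CPM in untreated + LPS macrophages (2.84 ± 0.33, adjusted p = 3.43e-08). Il1a averaged 3888 ± 2086 CPM with OSW-1 and 112 ± 57.7 CPM without it (5.11 ± 0.54). Il12b, the p40 chain shared by interleukin-12 and interleukin-23, had 511, 645 and 779 CPM in OSW-1 + LPS macrophages, against 10.5, 8.40 and 0.425 CPM in untreated + LPS macrophages, without overlap (6.64 ± 0.80, adjusted p = 9.26e-08). Its partner chains were near 0 in the untreated group. Il12a averaged 38.6 ± 29.0 CPM with OSW-1 and 0.0805 ± 0.0697 CPM without it, and Il23a had 2041 reads with OSW-1 and 3 without it, a ratio of 496 (169.6 to 2408).

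Chemokines of different target cells did not move as a block. The neutrophil chemokines Cxcl2 (4116 ± 886 CPM with OSW-1 and 33.0 ± 15.5 CPM without it) and Cxcl3 (2344 ± 615 CPM with OSW-1 and 9.39 ± 7.26 CPM without it) rose with Cxcl1, by 6.96 ± 0.50 and 7.96 ± 0.51 on the log2 scale. Ccl3 (5.24 ± 0.42) and Ccl4 (3.17 ± 0.32), chemokines for monocytes and T cells, also rose. Counts of Cxcl1, Cxcl2 and Cxcl3, which are close paralogs, can trade reads. Ccl5, another chemokine for T cells, fell by 0.93 on the log2 scale (3370.3 ± 839 CPM with OSW-1 and 6438 ± 905 CPM without it, adjusted p = 0.000118), and the monocyte chemokine Ccl12 fell by 4.88 (1.07 ± 0.588 CPM with OSW-1 and 32.2 ± 5.51 CPM without it, adjusted p = 5.59e-08). Its neighbours Ccl2 (0.087 ± 0.58, adjusted p = 0.901) and Ccl7 (0.30 ± 0.63, adjusted p = 0.68) did not pass the test. The anti-inflammatory members showed no such rise. Il10 had 3.29, 3.29 and 4.26 CPM in OSW-1 + LPS macrophages, against 4.43, 3.12 and 3.40 CPM in untreated + LPS macrophages, with overlapping groups (-0.011 ± 0.30, adjusted p = 0.978), and Il1rn, the interleukin-1 receptor antagonist, fell by 2.01 ± 0.32 (458 ± 141 CPM with OSW-1 and 1851 ± 929 CPM without it, adjusted p = 3.36e-06).

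Colony-stimulating factors and relatives of interleukin-6 that passed the test included these. Csf1, the macrophage colony-stimulating factor, averaged 659 ± 107 CPM with OSW-1 and 20.5 ± 10.2 CPM without it (5.00 ± 0.35, adjusted p = 3.4e-12). Csf3, the granulocyte factor, averaged 14.7 ± 8.34 CPM with OSW-1 and 0.0815 ± 0.0941 CPM without it (7.44 ± 0.87, adjusted p = 1.43e-06), and Osm, an interleukin-6 family cytokine, 207 ± 3.17 CPM with OSW-1 and 15.7 ± 6.29 CPM without it (3.73 ± 0.31, adjusted p = 1.18e-10). Lif, of the same family, had 1197 reads with OSW-1 and 1 without it, a ratio of 873 (156 to 34515).

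Of 15 tested LPS effector genes, 4 were higher and 7 lower (26.7% and 46.7%, near the 34.3% and 37.1% of all genes, median -0.492). Ptgs2, the cyclooxygenase COX-2, had 10256, 10102 and 11592 CPM in OSW-1 + LPS macrophages, against 213, 121 and 20.1 CPM in untreated + LPS macrophages. The lowest OSW-1 library was far above the highest untreated one (6.5 ± 0.62, adjusted p = 1e-09). Nos2, the inducible nitric oxide synthase, went the other way with 48.0, 34.6 and 29.8 CPM in OSW-1 + LPS macrophages, against 691, 409 and 174 CPM in untreated + LPS macrophages, and the groups did not overlap (-3.50 ± 0.50, adjusted p = 1.25e-06). Hp, haptoglobin, had 8.79, 9.20 and 17.2 CPM in OSW-1 + LPS macrophages, against 544, 439 and 521 CPM in untreated + LPS macrophages (-5.41 ± 0.38, adjusted p = 3.61e-12). Hmox1, heme oxygenase, averaged 505 ± 45.6 CPM with OSW-1 and 5572 ± 2947 CPM without it (-3.46 ± 0.32, adjusted p = 7.05e-10), and Slpi, a protease inhibitor secreted at mucosal surfaces, rose by 2.26 ± 0.24 (adjusted p = 8.24e-09). The acute-phase protein Saa3, chosen after its values were seen, averaged 2583 ± 1687 CPM with OSW-1 and 40602 ± 3885 CPM without it (-3.97 ± 0.48, adjusted p = 5.08e-08). Ch25h had 0.762, 0.599 and 1.82 CPM with OSW-1 and 1.23, 2.34 and 0.973 CPM without it, with overlapping groups (-0.49 ± 0.66, adjusted p = 0.511). With Ch25h-/- + LPS macrophages as the untreated group, 7 members of this list were higher in place of 4. Tnfaip6 held at most 13 counts in a library and was not tested.

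Interferon-stimulated genes were lower as a group, with 24 of 36 tested members lower and 1 higher (median -1.1). Cxcl9, a chemokine for CXCR3-bearing T cells, had 1.24, 2.10 and 2.03 CPM in OSW-1 + LPS macrophages, against 135, 113 and 41.2 CPM in untreated + LPS macrophages. All OSW-1 libraries were far under the untreated ones (-5.74 ± 0.42, adjusted p = 7.95e-12). Irf7, which amplifies interferon transcription, had 398, 451 and 552 CPM in OSW-1 + LPS macrophages, against 2971, 2657 and 2017 CPM in untreated + LPS macrophages, also without overlap (-2.45 ± 0.25, adjusted p = 4.62e-09). Iigp1, an immunity-related GTPase, averaged 6.70 ± 1.1 CPM with OSW-1 and 98.7 ± 16.6 CPM without it (-3.88 ± 0.37, adjusted p = 1.24e-09), and Bst2, the tetherin that holds budding virus at the cell surface, 400.2 ± 74.5 CPM with OSW-1 and 1197 ± 175 CPM without it (-1.58 ± 0.16, adjusted p = 3.56e-09).

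The interferon list was not lowered evenly. Ifit3, whose protein binds viral RNA, fell by 2.56 ± 0.32 (106 ± 15.8 CPM with OSW-1 and 626 ± 169 CPM without it, adjusted p = 1.16e-07), while its neighbour Ifit1 had 454, 442 and 369 CPM with OSW-1 and 668, 834 and 531 CPM without it, without overlap, and did not pass the test (-0.68 ± 0.32, adjusted p = 0.0606). Ifit1 passed with the 6 compared libraries fitted alone (-0.67), with the mouse as a block in the wild-type libraries (-0.69) and without the third untreated mouse (-0.83). Cxcl10, another CXCR3 ligand, had 261, 287 and 255 CPM with OSW-1 and 374, 597 and 298 CPM without it, also without overlap (-0.66 ± 0.44, adjusted p = 0.187) and passed with the 6 compared libraries fitted alone (-0.64). Gbp3, a guanylate-binding protein named as the list's single member higher, averaged 380.2 ± 42.7 CPM with OSW-1 and 216 ± 65.0 CPM without it (0.82 ± 0.29, adjusted p = 0.0145), and it did not pass without the third untreated mouse. Reads of the Ifit and Gbp paralogs can be split between family members, so single values of these genes are uncertain.

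Genes of cholesterol synthesis and uptake fell together, with 23 of 24 tested members lower (95.8%, the highest share in 1 direction among the 22 gene lists) and a median log2 fold change of -2.24. Dhcr7, the enzyme of the last step of cholesterol synthesis, had 2.37, 2.62 and 2.75 CPM in OSW-1 + LPS macrophages, against 49.2, 52.7 and 49.3 CPM in untreated + LPS macrophages. The highest OSW-1 library was well under the lowest untreated one (-4.28 ± 0.22, adjusted p = 1.7e-14). Msmo1, a demethylase of the late pathway, averaged 25.1 ± 2.83 CPM with OSW-1 and 185 ± 45.1 CPM without it (-2.88 ± 0.18, adjusted p = 4.8e-13), and Stard4, a soluble cholesterol carrier, 3.94 ± 0.753 CPM with OSW-1 and 55.6 ± 3.56 CPM without it (-3.81 ± 0.23, adjusted p = 3.34e-13). Hmgcs1, an early enzyme whose promoter is shown above, had 42.4, 46.3 and 41.5 CPM in OSW-1 + LPS macrophages, against 127, 148 and 105 CPM in untreated + LPS macrophages, without overlap (-1.54 ± 0.14, adjusted p = 2.25e-10).

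LXR targets went both ways, with 4 of 14 higher and 8 lower (28.6% and 57.1%, against 34.3% and 37.1% of all genes, median -1.15). The cholesterol exporter Abcg1 had 435, 447 and 451 CPM in OSW-1 + LPS macrophages, against 294, 269 and 278 CPM in untreated + LPS macrophages and was higher without overlap (0.66 ± 0.13, adjusted p = 9.21e-05). Its partner Abca1 had 749, 716 and 641 CPM with OSW-1 and 447, 532 and 829.5 CPM without it, with overlapping groups (0.22 ± 0.21, adjusted p = 0.353). Abca1 passed without the third untreated mouse (0.52) and stood at -0.15 when Ch25h-/- macrophages were the untreated group. The desaturases for monounsaturated fatty acids, Scd1 and Scd2, were lower: Scd1 averaged 1.95 ± 0.410 CPM with OSW-1 and 69.9 ± 9.48 CPM without it (-5.15 ± 0.45, adjusted p = 2.14e-10) and Scd2 38.1 ± 25.7 CPM with OSW-1 and 1136 ± 78.2 CPM without it (-4.89 ± 0.39, adjusted p = 4.91e-11). Lpcat3, which puts polyunsaturated chains into phospholipids, fell by 1.45 ± 0.086 (adjusted p = 2.11e-13), and the phosphodiesterase Smpdl3a by 2.21 ± 0.13 (adjusted p = 2.78e-13).

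Genes that take up, store and release cholesterol were mostly lower, with 10 of 13 lower and 2 higher (median -1.38). Npc2, which hands cholesterol to the lysosomal membrane, had 472, 500.1 and 632 CPM in OSW-1 + LPS macrophages, against 3762, 2945 and 2399 CPM in untreated + LPS macrophages, without overlap (-2.50 ± 0.15, adjusted p = 1.85e-13). Nceh1, a cholesterol ester hydrolase, averaged 58.5 ± 6.43 CPM with OSW-1 and 345 ± 61.8 CPM without it (-2.56 ± 0.11, adjusted p = 2.15e-15), the lipoprotein receptor Scarb1 33.8 ± 3.31 CPM with OSW-1 and 239 ± 36.7 CPM without it (-2.82 ± 0.17), and Lrp1, a second lipoprotein receptor, 151 ± 4.04 CPM with OSW-1 and 721 ± 150.1 CPM without it (-2.25 ± 0.16). Soat2, which esterifies cholesterol and was chosen after its values were seen, was higher at 53.8 ± 2.51 CPM with OSW-1 and 6.08 ± 2.63 CPM without it (3.15 ± 0.27, adjusted p = 1.29e-10), while Soat1 with the same activity fell by 1.29 ± 0.11 (adjusted p = 6.89e-11).

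The target of OSW-1 itself was higher. Osbp had 186, 187 and 182 CPM in OSW-1 + LPS macrophages, against 84.9, 91.5 and 84.2 CPM in untreated + LPS macrophages, and the groups did not overlap (1.09 ± 0.086, adjusted p = 3.92e-11). Of the 18 tested genes of the OSBP family and its contact-site partners, 7 were higher and 7 lower (38.9% each, against 34.3% and 37.1% of all genes, median 0.0106), and with the compared groups fitted alone 4 were lower. Acbd3, which brings the kinase PI4KB to the Golgi, had 313, 294 and 260.5 CPM in OSW-1 + LPS macrophages, against 88.9, 88.5 and 78.0 CPM in untreated + LPS macrophages (1.76 ± 0.11, adjusted p = 7.68e-13), and Col4a3bp, the ceramide carrier CERT that shares the PI4P-rich Golgi membrane with OSBP, averaged 198 ± 19.5 CPM with OSW-1 and 74.3 ± 5.33 CPM without it (1.41 ± 0.12, adjusted p = 8.22e-11). Osbpl2 rose by 0.96 ± 0.067 (adjusted p = 3.91e-12). Pi4kb, the Golgi kinase that makes PI4P, fell by 0.62 ± 0.066 (58.3 ± 2.47 CPM with OSW-1 and 89.4 ± 10.1 CPM without it, adjusted p = 7.2e-09), and Osbpl9, another carrier of the family, by 1.01 ± 0.10 (adjusted p = 1.9e-09).

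Golgi and ER-Golgi transport genes rose together, with 22 of 25 higher and 1 lower (median 1.29). Kdelr2, a receptor that returns escaped endoplasmic reticulum proteins, had 289, 286 and 277 CPM in OSW-1 + LPS macrophages, against 66.7, 70.9 and 71.2 CPM in untreated + LPS macrophages. All OSW-1 libraries were high, with little spread in either group (2.03 ± 0.078, adjusted p = 2.09e-16). Its paralog Kdelr3, chosen after its values were seen, averaged 18.6 ± 1.54 CPM with OSW-1 and 0.101 ± 0.0702 CPM without it (7.47 ± 0.45, adjusted p = 2.96e-13), whereas Kdelr1 was at 0.077 ± 0.087 (adjusted p = 0.433). Copb2, a subunit of the COPI coat of vesicles that leave the Golgi backwards, had 735, 687 and 602 CPM in OSW-1 + LPS macrophages, against 241, 222 and 216 CPM in untreated + LPS macrophages (1.58 ± 0.079, adjusted p = 1.29e-14). Sec23a, a subunit of the COPII coat for the forward route, averaged 214 ± 5.22 CPM with OSW-1 and 58.5 ± 3.43 CPM without it (1.87 ± 0.09, adjusted p = 7.08e-15), and the golgin Golga5 118 ± 6.31 CPM with OSW-1 and 45.5 ± 1.91 CPM without it (1.37 ± 0.071, adjusted p = 2.19e-14). Sec24d, a COPII subunit whose promoter is shown above, averaged 319 ± 6.70 CPM with OSW-1 and 115 ± 10.8 CPM without it (1.47 ± 0.086, adjusted p = 1.73e-13). Tmed10, a cargo receptor of both routes, was the list's lower member and fell by 0.67 ± 0.085 (adjusted p = 1.29e-07).

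**Figure D2:**
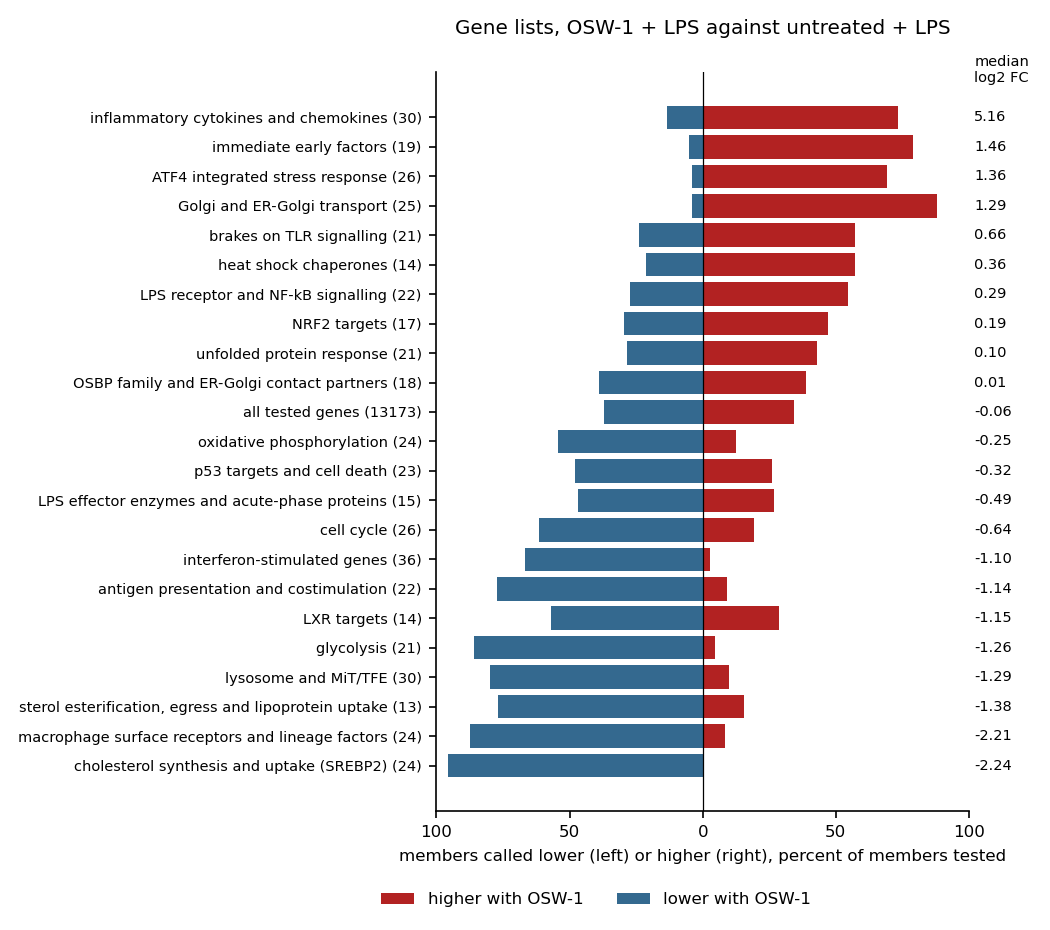
Percent of the tested members of each gene list called higher or lower in OSW-1 + LPS against untreated + LPS macrophages, with all 13173 tested genes as a row of their own and each list's median log2 fold change at the right. Golgi transport and inflammatory genes were called mostly higher and cholesterol synthesis, glycolysis, macrophage receptor and lysosome genes mostly lower, against 34.3% and 37.1% of all genes.

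Of 21 tested genes of the unfolded protein response, 9 were higher and 6 lower (42.9% and 28.6%, near the 34.3% and 37.1% of all genes, median 0.0991). Herpud1, which helps remove misfolded proteins, had 147, 149 and 194 CPM in OSW-1 + LPS macrophages, against 58.8, 53.6 and 55.4 CPM in untreated + LPS macrophages, without overlap (1.55 ± 0.15, adjusted p = 1.09e-09). The co-chaperone Dnajb9 averaged 149 ± 27.4 CPM with OSW-1 and 54.2 ± 5.73 CPM without it (1.46 ± 0.10, adjusted p = 5.8e-12), and Hspa5, the main chaperone of the endoplasmic reticulum, 3089 ± 491 CPM with OSW-1 and 1734 ± 89.3 CPM without it (0.83 ± 0.13, adjusted p = 2.9e-06). Syvn1, the ubiquitin ligase of the same disposal route as Herpud1, rose by 0.92 ± 0.10 (adjusted p = 7.77e-09). Several folding enzymes fell: Calr, the calcium-binding lectin chaperone calreticulin, averaged 769 ± 131 CPM with OSW-1 and 2004 ± 102 CPM without it (-1.38 ± 0.14, adjusted p = 2.71e-09), and the disulfide isomerases Pdia3, Pdia4 and Pdia6 fell by 0.66 ± 0.12, 0.59 ± 0.15 and 0.50 ± 0.16. Without the third OSW-1 mouse, 10 members of this list were lower in place of 6.

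Targets of ATF4, the factor of the integrated stress response that drives amino acid uptake and synthesis, were higher at 18 of 26 and lower at 1 (median 1.36). Slc7a11, the cystine carrier, had 690.3, 691 and 689 CPM in OSW-1 + LPS macrophages, against 30.7, 23.0 and 5.47 CPM in untreated + LPS macrophages. The groups lay far apart (5.13 ± 0.41, adjusted p = 5.63e-11). Atf4 itself had 1135, 1148 and 1204 CPM in OSW-1 + LPS macrophages, against 466, 422 and 233 CPM in untreated + LPS macrophages, without overlap (1.64 ± 0.18, adjusted p = 1.18e-08). Chac1, which breaks down glutathione, had 36.2, 38.5 and 43.1 CPM in OSW-1 + LPS macrophages, against 4.0, 6.30 and 0.973 CPM in untreated + LPS macrophages (3.39 ± 0.43, adjusted p = 1.41e-07). Shmt2, the mitochondrial serine enzyme, averaged 137 ± 4.31 CPM with OSW-1 and 19.4 ± 2.89 CPM without it (2.83 ± 0.24, adjusted p = 1.5e-10), and Pycr1 of proline synthesis 6.63 ± 1.05 CPM with OSW-1 and 0.567 ± 0.0413 CPM without it (3.54 ± 0.35, adjusted p = 1.98e-09). Ddit3, the stress factor CHOP, rose by 1.05 ± 0.25 (200.0 ± 13.6 CPM with OSW-1 and 96.5 ± 45.6 CPM without it, adjusted p = 0.000621), and Asns, asparagine synthetase, by 2.08 ± 0.35 (adjusted p = 9.55e-06).

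NRF2 targets, the antioxidant genes, were higher at 8 of 17 and lower at 5 (47.1% and 29.4%, against 34.3% and 37.1% of all genes, median 0.194). Among the members higher were Gclc, the first enzyme of glutathione synthesis, at 87.6 ± 9.58 CPM with OSW-1 and 33.2 ± 9.94 CPM without it (1.40 ± 0.15, adjusted p = 9.24e-09) and the thioredoxin reductase Txnrd1 at 1424 ± 97.4 CPM with OSW-1 and 336 ± 147 CPM without it (2.08 ± 0.25, adjusted p = 4.51e-08). Among the members lower were Hmox1, as above, and the ferritin chains Fth1 and Ftl1, which fell by 1.04 ± 0.13 and 1.24 ± 0.15. Heat shock chaperones were higher at 8 of 14 and lower at 3 (57.1% and 21.4%, median 0.362, and 0.362 with Hspb1 at its bound). Hspa4 rose by 1.13 ± 0.10 (adjusted p = 3.83e-10), the mitochondrial Hspd1 by 1.23 ± 0.14 (adjusted p = 2.98e-08) and the co-chaperones Hsph1 and Bag3 by 0.97 ± 0.13 and 0.91 ± 0.10. Hspb1 had no read with OSW-1 and 24 without it, at least 11-fold lower. The counts of lower members rested on single mice: without the third untreated mouse they were 8 for the NRF2 targets and 5 for the heat shock chaperones.

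Genes that sense LPS and carry its signal went both ways. Of 22 tested genes of the LPS receptor and NF-kB signalling, 12 were higher and 6 lower (54.5% and 27.3%, against 34.3% and 37.1% of all genes, median 0.289). Cd14, the co-receptor that hands LPS to TLR4, had 4593, 4819 and 5239 CPM in OSW-1 + LPS macrophages, against 976, 781 and 966 CPM in untreated + LPS macrophages, without overlap (2.43 ± 0.16, adjusted p = 1.54e-12). Tlr4 had 166, 155 and 164 CPM with OSW-1 and 132, 124 and 141 CPM without it (0.29 ± 0.10, adjusted p = 0.0124), and without the second untreated mouse it no longer passed (0.24). Rel, the NF-kB subunit c-Rel, had 104, 109.6 and 92.7 CPM in OSW-1 + LPS macrophages, against 17.0, 16.7 and 12.9 CPM in untreated + LPS macrophages, again without overlap (2.72 ± 0.15, adjusted p = 8.84e-14). Nfkb1, the p105 and p50 subunit, averaged 605 ± 10.2 CPM with OSW-1 and 125 ± 7.41 CPM without it (2.28 ± 0.11, adjusted p = 9.64e-15), and the kinase Ikbkb rose by 1.35 ± 0.084 (adjusted p = 4.53e-13).

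More of the genes listed as brakes on the same pathway rose than fell. Among 21 tested brakes on TLR signalling, 12 were higher and 5 lower (57.1% and 23.8%, against 34.3% and 37.1% of all genes, median 0.664). The lowest member stood at -3.67 on the log2 scale, and those named here were among the higher ones. Nfkbiz, the nuclear IkB-zeta needed for a later set of cytokine genes including Il6, had 287, 304 and 307 CPM in OSW-1 + LPS macrophages, against 30.1, 35.9 and 43.1 CPM in untreated + LPS macrophages, without overlap (3.04 ± 0.18, adjusted p = 1.78e-13). Nfkbib, an inhibitor that holds NF-kB in the cytoplasm, averaged 327 ± 17.0 CPM with OSW-1 and 73.3 ± 15.3 CPM without it (2.16 ± 0.16, adjusted p = 1.58e-11), and Nfkbia, its faster relative, 739 ± 54.0 CPM with OSW-1 and 466 ± 145 CPM without it (0.66 ± 0.17, adjusted p = 0.00141). Cish, a suppressor of cytokine receptor signalling, rose by 3.70 ± 0.35 (91.8 ± 25.6 CPM with OSW-1 and 7.08 ± 3.73 CPM without it, adjusted p = 1e-09), and Irak3, an inactive kinase that blocks MyD88 signalling, by 1.13 ± 0.11 (adjusted p = 2.43e-09). Immediate early factors were higher at 15 of 19 and lower at 1 (median 1.46). The orphan nuclear receptor Nr4a1 averaged 41.2 ± 7.76 CPM with OSW-1 and 1.07 ± 0.310 CPM without it (5.26 ± 0.41, adjusted p = 2.83e-11), and the AP-1 subunit Fosl1 12.8 ± 1.57 CPM with OSW-1 and 0.385 ± 0.231 CPM without it (5.04 ± 0.44, adjusted p = 2.33e-10). Nr4a3 had 1076 reads with OSW-1 and 2 without it, a ratio of 392 (108 to 3245). Klf2, a factor that quiets myeloid activation, was lower and fell by 4.01 ± 0.38 (0.697 ± 0.103 CPM with OSW-1 and 11.3 ± 7.97 CPM without it, adjusted p = 7.34e-10).

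Macrophage surface receptors and lineage factors were lower at 21 of 24 and higher at 2 (median -2.21). The highest member stood at 4.35 on the log2 scale. Without the first untreated mouse, or without the third OSW-1 mouse, 1 member was higher in place of 2. Mrc1, the mannose receptor CD206, had 2.17, 1.61 and 4.20 CPM in OSW-1 + LPS macrophages, against 135, 152 and 248 CPM in untreated + LPS macrophages. Every OSW-1 library was far under every untreated one (-6.05 ± 0.34, adjusted p = 8.19e-14). Fcgr4, an activating Fc receptor for IgG, had 5.30, 6.51 and 12.8 CPM in OSW-1 + LPS macrophages, against 581, 492 and 598 CPM in untreated + LPS macrophages, also without overlap (-6.08 ± 0.26, adjusted p = 1.4e-15). Mertk, which recognizes apoptotic cells, averaged 1.79 ± 0.561 CPM with OSW-1 and 89.4 ± 21.8 CPM without it (-5.62 ± 0.28, adjusted p = 1.3e-14), the lipid-sensing receptor Trem2 11.2 ± 2.73 CPM with OSW-1 and 201 ± 20.9 CPM without it (-4.17 ± 0.24, adjusted p = 1.63e-13), and Cx3cr1, the fractalkine receptor, 0.184 ± 0.0556 CPM with OSW-1 and 3.10 ± 1.98 CPM without it (-4.03 ± 0.98, adjusted p = 0.000692). The receptor gene Cx3cr1 thus fell where the gene of its ligand Cx3cl1 rose. The myeloid lineage factor Spi1, PU.1, fell by 0.24 ± 0.092 (374 ± 9.06 CPM with OSW-1 and 443 ± 42.9 CPM without it, adjusted p = 0.0219).

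Antigen presentation was lower at 17 of 22 and higher at 2 (median -1.14). The peptide-loading chains of MHC class II, H2-DMb1 and H2-DMa, averaged 2.59 ± 1.24 CPM with OSW-1 and 74.7 ± 12.7 CPM without it and 4.05 ± 0.402 CPM with OSW-1 and 47.6 ± 5.35 CPM without it (-4.83 ± 0.29, adjusted p = 3.19e-13, and -3.55 ± 0.28, adjusted p = 2.84e-11). B2m, the light chain of class I, averaged 2087 ± 345 CPM with OSW-1 and 6978 ± 1266 CPM without it (-1.74 ± 0.12, adjusted p = 6.13e-12). The costimulatory ligand Cd80 had 53, 63.6 and 58.4 CPM in OSW-1 + LPS macrophages, against 7.44, 9.36 and 4.86 CPM in untreated + LPS macrophages and rose without overlap (3.01 ± 0.21, adjusted p = 2.65e-12). Cd40, its counterpart for T cell help, was the other member higher (853 ± 48.6 CPM with OSW-1 and 103 ± 39.7 CPM without it, 3.05 ± 0.28).

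Lysosomal genes were lower at 24 of 30 and higher at 3 (median -1.29). The cathepsin protease Ctsb had 2087, 2017 and 2016 CPM in OSW-1 + LPS macrophages, against 21982, 18040.1 and 14554 CPM in untreated + LPS macrophages, without overlap (-3.16 ± 0.13, adjusted p = 1.01e-15). Ctsd averaged 2166 ± 167 CPM with OSW-1 and 12913 ± 2256 CPM without it (-2.58 ± 0.12, adjusted p = 7.08e-15), the hexosaminidase Hexa 199 ± 11.3 CPM with OSW-1 and 980.4 ± 99.2 CPM without it (-2.30 ± 0.12, adjusted p = 2.32e-14) and the mannosidase Man2b1 55.6 ± 7.36 CPM with OSW-1 and 579 ± 49.1 CPM without it (-3.38 ± 0.15, adjusted p = 2.15e-15). Sqstm1, the autophagy adaptor p62, chosen after its values were seen, was higher at 8163 ± 1332 CPM with OSW-1 and 1406 ± 718 CPM without it (2.54 ± 0.31, adjusted p = 6.68e-08).

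Glycolysis genes were lower at 18 of 21 and higher at 1 (median -1.26). Pfkfb3, which makes the activator of phosphofructokinase, had 54.9, 53.8 and 83.8 CPM in OSW-1 + LPS macrophages, against 784, 617 and 861 CPM in untreated + LPS macrophages, without overlap (-3.55 ± 0.17, adjusted p = 8.49e-15). Aldoc, an aldolase, averaged 2.50 ± 0.567 CPM with OSW-1 and 89.9 ± 24.2 CPM without it (-5.16 ± 0.31, adjusted p = 2.83e-13), Pfkm, a phosphofructokinase subunit, 4.04 ± 1.33 CPM with OSW-1 and 34.7 ± 2.47 CPM without it (-3.09 ± 0.21, adjusted p = 1.95e-12) and Gpi1, the phosphoglucose isomerase, 286 ± 60.2 CPM with OSW-1 and 841 ± 119.7 CPM without it (-1.56 ± 0.13, adjusted p = 6.4e-11). Oxidative phosphorylation genes were lower at 13 of 24 and higher at 3 (54.2% and 12.5%, against 37.1% and 34.3% of all genes), with a small median of -0.248. Members ranged from -0.918 to 0.611 on the log2 scale, and those named next fell further than the median. The named members Atp5c1, Cox6c, Ndufb5 and Atp5o fell by 0.82 ± 0.083, 0.90 ± 0.12, 0.92 ± 0.12 and 0.55 ± 0.079.

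Cell cycle genes were lower at 16 of 26 and higher at 5 (61.5% and 19.2%, against 37.1% and 34.3% of all genes, median -0.639). Ccnd1, cyclin D1, had 0.923, 0.973 and 1.1 CPM in OSW-1 + LPS macrophages, against 35.1, 56.0 and 36.6 CPM in untreated + LPS macrophages, without overlap (-5.40 ± 0.49, adjusted p = 4.65e-10), and the mitotic kinases Aurkb and Bub1 fell by 3.62 ± 0.15 and 3.89 ± 0.34. Tyms, thymidylate synthase, went the other way (29.7 ± 4.50 CPM with OSW-1 and 1.76 ± 0.377 CPM without it, 4.07 ± 0.23, adjusted p = 8.81e-14). Among p53 targets and cell death genes, 6 of 23 were higher and 11 lower (26.1% and 47.8%, near the 34.3% and 37.1% of all genes, median -0.32). Nlrp3, the sensor of the inflammasome that activates caspase-1, had 633, 585 and 530.4 CPM in OSW-1 + LPS macrophages, against 65.1, 70.6 and 79.4 CPM in untreated + LPS macrophages and rose without overlap (3.02 ± 0.19, adjusted p = 5.44e-13). Gsdmd, the pore protein cut by that caspase, averaged 132 ± 7.27 CPM with OSW-1 and 263 ± 28.9 CPM without it (-1.0 ± 0.09, adjusted p = 4.34e-10). Mcl1, a survival protein of the BCL2 family, fell by 1.59 ± 0.10 (adjusted p = 1.09e-12).

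Whether the OSW-1 effect differed between LPS-stimulated and unstimulated macrophages was tested as the difference of the 2 effects in the same fit. Unstimulated macrophages were collected at time 0, the OSW-1 ones after 18 h of pretreatment, and LPS-stimulated ones 18 h later. LPS and the added time cannot be told apart in this test, and "with LPS" below covers both. The counts of the unstimulated OSW-1 and untreated libraries were all even, so the difference in form of the counts stays within the LPS side of this test, and its part in the result was not tested. It was higher with LPS for 3076 genes (23.4%) and lower with LPS for 3732 (28.3%). Of the inflammatory genes, 15 of 30 had a higher effect with LPS and 4 a lower one (median difference 3.81). Cx3cl1 had 1.52, 2.44 and 1.51 CPM in unstimulated OSW-1 macrophages and 2.27, 2.55 and 2.42 CPM in unstimulated untreated ones, so the rise described above was seen with LPS and not without it (difference 9.62 ± 0.63, adjusted p = 1.8e-11). The difference was 5.96 ± 1.13 for Cxcl1 (adjusted p = 0.000102) and 6.51 ± 1.37 for Ccl22 (adjusted p = 0.000318), but Cxcl1 no longer passed when the third unstimulated untreated mouse was left out (4.50). For Csf2, Il6 and Il12b, which had almost no reads without LPS, the difference did not pass (adjusted p = 0.987, 0.0901 and 0.38).

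Macrophage identity genes showed the reverse. The effect of OSW-1 was lower with LPS for 19 of 24 receptors and lineage factors (median difference -2.79). Mrc1 had 555, 694 and 573 CPM in unstimulated OSW-1 macrophages and 1983, 2209 and 1640.0 CPM in unstimulated untreated ones (effect without LPS -1.68 ± 0.26), and the difference was -4.38 ± 0.41 (adjusted p = 4.36e-09). Cx3cr1 was higher with OSW-1 without LPS (4.40 ± 0.51, adjusted p = 3.03e-07) and lower with LPS, a difference of -8.43 ± 1.01 (adjusted p = 2.28e-07). Tgfbi had an effect of 0.69 ± 0.40 without LPS (adjusted p = 0.181) and a difference of -8.88 ± 0.66. All 21 glycolysis genes and 24 of 30 lysosomal genes had a lower effect with LPS.

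Interferon genes had the opposite pattern, with a higher effect with LPS for 25 of 36 and a lower one for 2 (median difference 1.02). Their median OSW-1 effect was -1.1 with LPS and -2.32 without it. Ifit1 had an effect of -3.40 ± 0.37 without LPS (adjusted p = 8.99e-08), and the difference was 2.72 ± 0.48 (adjusted p = 3.94e-05). Cxcl9 went the other way, with a difference of -4.66 ± 1.23 (adjusted p = 0.00273). Cholesterol genes had a median effect of -2.24 with LPS and -1.74 without it, and the effect was lower with LPS for 12 of 24 and higher for 1. Golgi genes had a median effect of 1.29 with LPS and 0.677 without it, and the effect was higher with LPS for 16 of 25 and lower for 1. LXR targets had medians of opposite sign, -1.15 with LPS and 0.147 without it, and a lower effect with LPS for 9 of 14. The difference was -2.59 ± 0.28 for Dhcr7 (adjusted p = 3.9e-08), 0.79 ± 0.11 for Kdelr2 (adjusted p = 1.41e-06), and -0.077 ± 0.25 for Atf4 (adjusted p = 0.818).

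**Figure D3:**
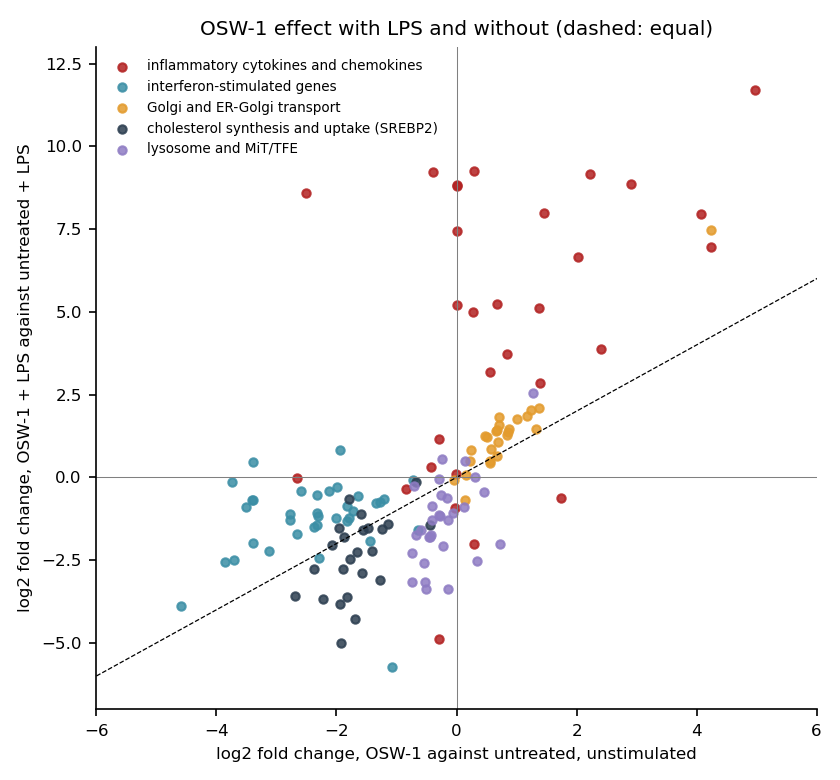
OSW-1 effect (log2 fold change, OSW-1 over untreated) in unstimulated macrophages on the x axis and in LPS-stimulated macrophages on the y axis, 1 point per member of 5 gene lists. Inflammatory genes, at up to 11.7 with LPS, and interferon and Golgi genes lie mostly above the dashed line of equal effects, and lysosomal and cholesterol genes mostly below it.

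OSW-1 differed from both other OSBP ligands of the series at the doses used, which were 0.3 µM OSW-1, 5 µM 25HC and 1 µM itraconazole. Doses were not matched, so the values are those of these treatments, not of equal exposure. All counts of the 25HC + LPS and itraconazole + LPS libraries were even, so the form of the counts goes with OSW-1 here as well, and the 2 cannot be told apart in these comparisons. Against 25HC + LPS, 3727 genes were higher (28.3%) and 4011 lower (30.4%) with OSW-1, and against itraconazole + LPS 3041 were higher (23.1%) and 3358 lower (25.5%). Il6 averaged 2235 ± 659 CPM with OSW-1, 185 ± 75.2 CPM with 25HC, 297 ± 132 CPM with itraconazole and 3.90 ± 2.56 CPM without a compound. Csf2 averaged 551 ± 207 CPM, 0.741 ± 0.673 CPM, 2.40 ± 1.05 CPM and 0.163 ± 0.188 CPM in the same order. The gap between OSW-1 and 25HC was 9.45 ± 0.53 for Csf2 (adjusted p = 1.38e-10) and 3.59 ± 0.42 for Il6 (adjusted p = 7.06e-08), and that between OSW-1 and itraconazole was 7.85 ± 0.47 (adjusted p = 6.51e-10) and 2.91 ± 0.40 (adjusted p = 2.1e-06). Cx3cl1 and Scube3 were likewise far higher with OSW-1 than with 25HC (6.72 and 9.10) or itraconazole (7.46 and 8.82). Of the 30 inflammatory genes, OSW-1 gave 21 higher and 5 lower values than 25HC, and 22 higher and 5 lower values than itraconazole.

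Genes lowered by OSW-1 were set beside the other compounds in the same way. Tgfbi averaged 5.63 ± 6.47 CPM with OSW-1, 1461 ± 220.5 CPM with 25HC, 1239 ± 648 CPM with itraconazole and 1669 ± 224 CPM without a compound. The OSW-1 libraries were far under both other compounds (-8.00 ± 0.55, adjusted p = 1.24e-11 against 25HC, and -7.76 ± 0.54, adjusted p = 3.44e-11 against itraconazole). Nxpe5 had a gap of -7.61 to 25HC and of -7.89 to itraconazole. Prss46, with 1 read in the OSW-1 libraries, averaged 11 ± 1.54 CPM with 25HC and 9.02 ± 3.34 CPM with itraconazole. Dhcr7 averaged 2.58 ± 0.195 CPM with OSW-1, 9.12 ± 2.71 CPM with 25HC, 6.90 ± 2.49 CPM with itraconazole and 50.4 ± 1.97 CPM without a compound, lower with each compound than without one. Of the 24 cholesterol genes, 12 were lower and 2 higher with OSW-1 than with 25HC, and 16 were lower than with itraconazole. Interferon genes were lower with OSW-1 than with 25HC at 31 of 36, and lower than with itraconazole at 22 and higher at 1. Golgi genes were higher than with 25HC at 20 of 25 and than with itraconazole at 16.

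**Figure D4:**
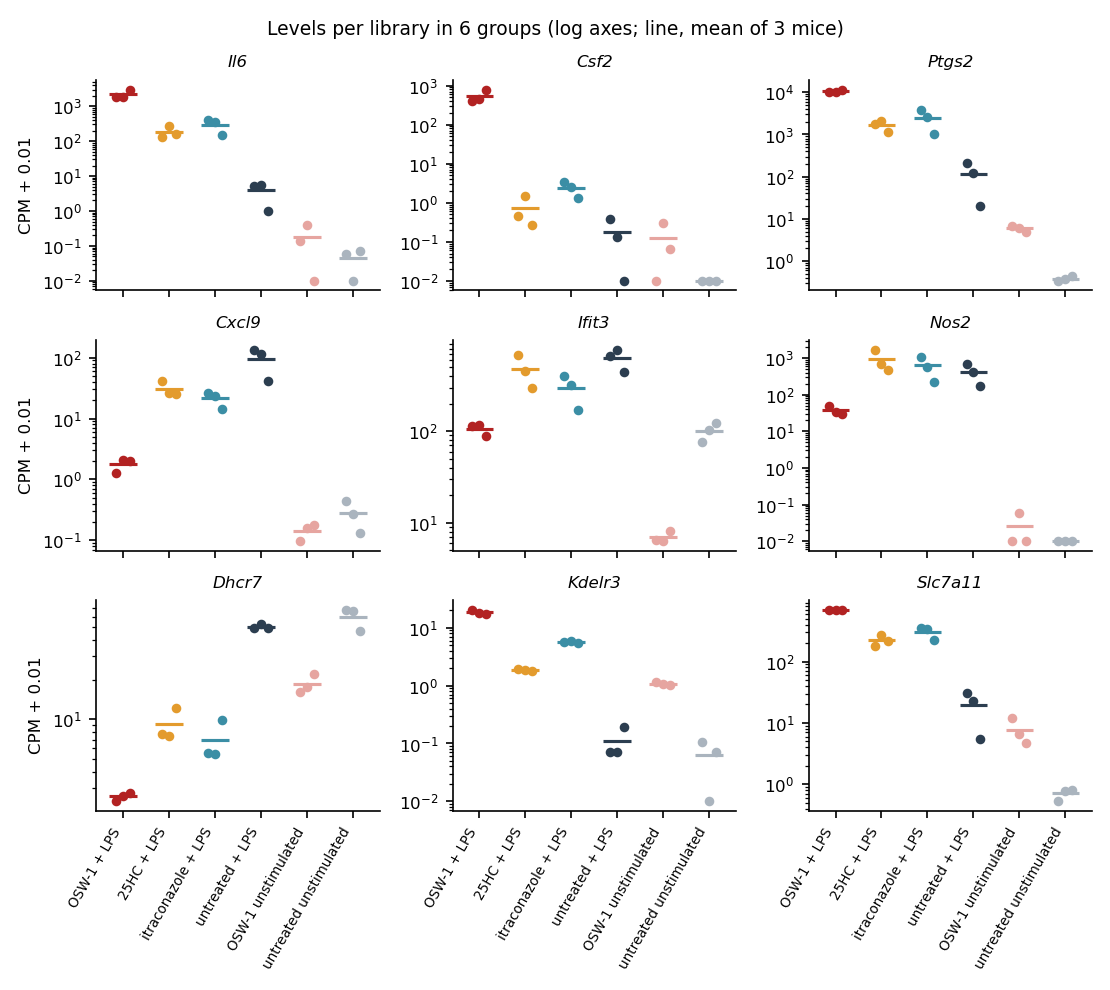
CPM + 0.01 on log axes for 9 genes in each library of 6 groups, from OSW-1 + LPS, 25HC + LPS, itraconazole + LPS and untreated + LPS to OSW-1 and untreated macrophages without LPS, with a line at the group mean and points for the 3 mice. Il6 stands at 2235 CPM on average with OSW-1 and LPS and at most 297 CPM in any other group, while Dhcr7 is lower with each compound than without one.

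The leading genes were also set against Ch25h-/- + LPS macrophages, which share the form of the OSW-1 counts. Il6 had a log2 fold change of 11.76 ± 0.64 against them (adjusted p = 5.24e-14), Dhcr7 of -4.33 ± 0.22 (adjusted p = 1.43e-14), Kdelr2 of 2.08 ± 0.078 (adjusted p = 1.25e-16) and Mrc1 of -6.42 ± 0.34 (adjusted p = 3.61e-14). Each had the direction it had against wild-type untreated + LPS macrophages. Ch25h, the deleted gene, stood at 3.17 ± 1.09 against the knockout, where it averaged 0.117 ± 0.113 CPM, and at -0.49 ± 0.66 against the wild type.

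**Figure D5:**
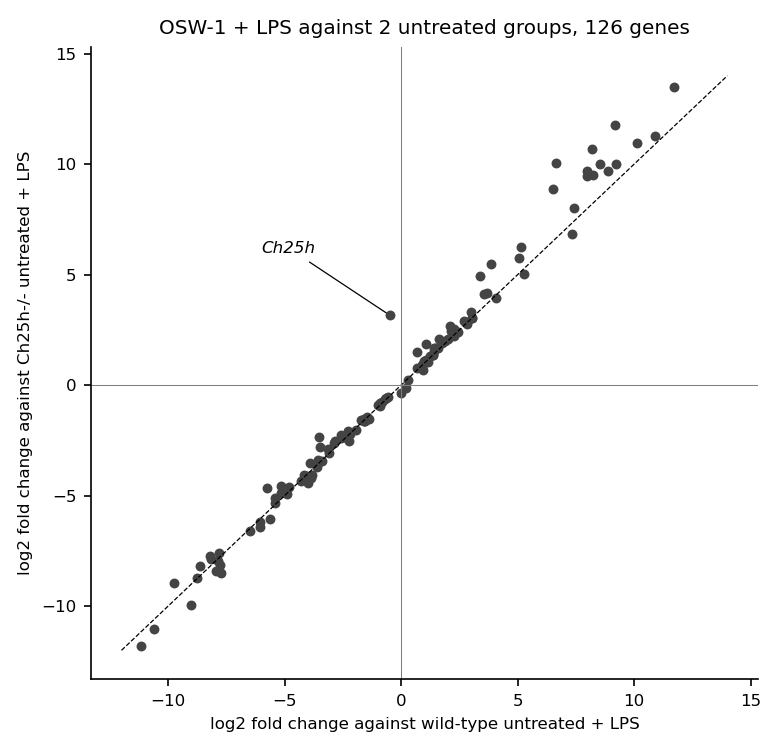
Log2 fold change of OSW-1 + LPS macrophages for 126 named genes, against wild-type untreated + LPS macrophages on the x axis and against Ch25h-/- untreated + LPS macrophages on the y axis, with both comparisons sharing the OSW-1 libraries. Points follow the diagonal over the range from -11.2 to 11.7, and Ch25h stands off it at -0.49 on the x axis and 3.17 on the y axis.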

How the data were processed

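Gene counts of polyA RNA from 30 macrophage libraries were used as the authors deposited them, 30538 genes in 1 table. Per the submitters' processing notes, the tools were FastQC 0.11.9, GSNAP, featureCounts of Subread 1.5.2 and edgeR 3.26.8, with build GRCm38/mm10, and per the labels' protocols the kit was stranded. Whether reads were counted by strand, and with which annotation release, is not given in the sources used here, so genes that overlap on opposite strands are uncertain. Every count was even in 20 libraries and odd and even in 10. All counts were tested as deposited, and halving the even ones was tried.

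After TMM normalization, filterByExpr (minimum count 10) left 13173 genes, with at least 99.982% of each library's counts. The 11735 genes without any count were among those dropped. One edgeR 4.0.16 quasi-likelihood fit (R 4.3.3) held all 10 groups of 3 libraries without covariates. Adjusted p is by Benjamini-Hochberg over all tested genes, with calls made under 0.05. CPM are counts scaled by TMM library sizes, except that the summed cell type markers use raw totals. The standard error of a log2 fold change is its size divided by the square root of F. Folds of genes with 0 to 3 reads in a group were taken from summed reads, halved where counts were even, with exact 95% intervals or a floor of 3 reads. Intervals and floors cover counting error only, since the reads carry no molecular identifiers.

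Genes named are the 12 largest and 12 smallest fold changes among called genes with non-overlapping groups, a log2 fold change of at least 1 in size and an average log2 CPM of at least 2, up to 4 members of each of 22 lists with the smallest p, the extremes of the other comparisons, and a fixed set. List members named beside these for their role were chosen after their values were seen. A few genes that the rule or the lists hold are not reported here by name, and list counts include them. The members of the comparison, the lists and the rule were chosen with earlier results of these data known. The fit was run on simulated data before use, which does not show how well its model suits these data.

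The mouse number is the animal within a genotype, per the labels. As a check, same-numbered libraries of the 2 compared groups had correlations of -0.0341 to 0.101 after removal of group means, and 54 of 84 wild-type pairs were over 0.1. The median in the compared groups was 0.0024 for same-numbered and 0.00295 for differently numbered pairs, so mouse number showed no pairing there. Over the wild-type groups these medians were 0.15 and -0.0772. Alternatives were DESeq2 1.42.0, its size factors, no low-count filter, halved even counts, the mouse as a block, the compared groups alone, Ch25h-/- macrophages as the untreated group, and leaving out each library.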

Additional observations from a re-analysis of the deposited data

Results flagged for a closer look

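The effect of OSW-1 differed between macrophages with and without LPS, by the test of the difference in edgeR with Benjamini-Hochberg adjustment, for 3076 genes with a higher effect with LPS and 3732 with a lower one. The values below are differences of log2 fold changes, with LPS minus without LPS, for genes that passed that test. Macrophages with LPS were collected 18 h later than those without it, so LPS and the added time cannot be told apart here.

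Effects higher with LPS were those on Scube3 (13.12), Cx3cl1 (9.62), Gm13889 (7.16), Serpinb2 (6.87), Ccl22 (6.51) and Cxcl1 (5.96). Serpinb2 no longer passed with halved even counts (6.90), without the second unstimulated untreated mouse (6.49) or without the third (6.38). Among the cytokines, the difference was 2.64 for Il10, 1.46 for Tnf and 1.45 for Il1b, and Il10, which did not pass with LPS alone, fell by 2.65 on the log2 scale with OSW-1 in unstimulated macrophages. It was 2.72 for Ifit1, the interferon-stimulated gene. Smaller differences were seen for the co-receptor Cd14 (0.89), the Golgi receptor Kdelr2 (0.79), Osbp (0.58) and Tlr4 (0.34).

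Effects lower with LPS were those on Prss46 (-12.47), Zfyve28 (-9.46), Tgfbi (-8.88), Nxpe5 (-8.50), Cx3cr1 (-8.43) and Sirpb1c (-7.86), a member of the signal-regulatory protein family. Cxcl9 (-4.66) and Mrc1 (-4.38) also had a lower effect with LPS. Ch25h had a difference of -3.93: OSW-1 raised it by 3.44 ± 0.56 without LPS (adjusted p = 3.01e-05), with 21.5 ± 10.2 CPM in OSW-1 macrophages and 1.96 ± 0.466 CPM in untreated ones, whereas with LPS its groups overlapped. Zfyve28 and Prss46 had 0 and 1 reads in OSW-1 + LPS macrophages and Scube3 1 read in untreated + LPS macrophages, so the size of their differences depends on the smallest counts. No explanation of these differences was tested.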

How the results depend on the processing

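Over the alternatives run, genes higher with OSW-1 + LPS numbered 3935 to 4609 and genes lower 3976 to 4975, against 4516 and 4887. The difference of effects gave 2777 to 3348 higher and 3459 to 3855 lower, the comparison with 25HC 3363 to 3840 and 3649 to 4115, and that with itraconazole 2468 to 3235 and 2700 to 3438. With the mouse as a replicate block in the wild-type libraries, 4609 genes were higher and 4926 lower, of which 9297 were among the 9403 calls. With the compared groups alone and the block, the counts were 3935 and 3976. Among the named genes of this comparison, that block changed the call of Ifit1 and no other. With the compared groups alone, Ifit1 and Cxcl10 passed both without the block (-0.67 and -0.64) and with it (-0.65 and -0.58). Of 1764 values of 126 named genes, 1748 kept direction and side of the threshold. Il10, which was not called, changed sign at 0.0054 with halved counts, 0.0059 with the compared groups alone, 0.0094 with the block too, and 0.05 to 0.14 without single mice. With Ch25h-/- macrophages as the untreated group, Ch25h stood at 3.17 and Abca1 at -0.15. Small list counts also moved: the lower ATF4 member was 0 to 2 and the lower heat shock members 0 to 5.

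The control comparison of Ch25h-/- against wild-type macrophages varied most. With LPS, its 30 calls became 81 without a filter, 58 with halved counts, 230 with DESeq2, 0 with the compared groups alone (777 at an unadjusted p under 0.05, edgeR) and 0 to 2396 without single mice (1118 unadjusted at the lowest). Without LPS, its 1 call became 5 with DESeq2 size factors, 2 without a filter, 6 with halved counts, 129 with DESeq2, 0 with the compared groups alone (2486 unadjusted) and 58 to 361 without Ch25h-/- mouse 2 or untreated mouse 3. The causes were not tested. Depth limits genes at 0 to 3 reads in a group, such as Scube3 and Prss46, to intervals or bounds.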
